A study of Sus scrofa with 35 samples.

Results

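The genes described here are 10 genes of the mTOR pathway (MLST8, MTOR, RPTOR, RICTOR, RPS6KB1, EIF4EBP1, AKT1, TSC2, RHEB and DDIT4), measured in a muscle of the back (longissimus dorsi) of pigs under thermoneutral (TN) or heat stress (HS) conditions. They were found as array probes that carry one of these symbols in the gene name column of the scanner files. By this rule 18 of 60305 probes were found, covering 9 of the 10 genes. The whole array was named for 11796 genes. RICTOR had no probe under its symbol, and 1 probe that the reference gene table names RICTOR through its accession is given in its place and marked as such. A probe entered the tests if, in some group, the scanner software marked it well above background on 75% or more of the arrays, which held for 41517 probes in all and for 17 of the 18. The 17 cover 8 genes, since the only TSC2 probe was well above background on 1 of 35 arrays.

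The 35 arrays came from castrated male pigs of 3 genetic types at both conditions. There were 6 TN and 6 HS arrays of Creole pigs, 6 TN and 5 HS arrays of F1 pigs, and 6 TN and 6 HS arrays of Large White pigs. Creole is a local Caribbean breed, Large White a commercial breed selected for lean growth, and F1 their cross. Each array carried the RNA of 1 animal. By its label a TN sample was at 24 °C and an HS sample at 30 °C, but the growth protocol describes an exposure to 32 °C lasting 5 days, and this disagreement is not settled. Per the study methods the TN animals were slaughtered before the room was warmed, and pigs of a breed included littermates. The HS animals, housed in different pens, were slaughtered on the last days of the exposure, some before a full 5 days. Which HS animals had the shorter exposure is not in the labels. Slaughter day, age and pen therefore cannot be told apart from temperature, and animals were treated as independent. The same holds for feed intake, which the paper reports as lower in the heat.

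The mTOR kinase works in a pair of complexes. In complex 1 (mTORC1) it is joined by RPTOR (raptor), which brings in substrates, and by MLST8, a small propeller protein that binds the kinase domain. In complex 2 (mTORC2) RICTOR takes the place of RPTOR, and MLST8 is shared. Insulin and growth factors act through AKT1, which inhibits TSC2, the part of the TSC complex that switches off the small GTPase RHEB. Active RHEB switches on mTORC1 at the lysosome, where amino acids bring it through the Rag GTPases. DDIT4 (REDD1), induced by stress and glucocorticoids, restrains mTORC1. In muscle, mTORC1 raises protein synthesis by phosphorylating S6 kinase 1 (RPS6KB1) and 4E-BP1 (EIF4EBP1), a repressor of cap-dependent translation. All of these are protein activities, and the arrays measured RNA levels only.

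The probe sequences behind the MLST8 and EIF4EBP1 values below are shown, because a gene name on an array is only as good as its probe. Passing probes of RPS6KB1 and MTOR that do not stand for their gene are not shown. Both sequences are 60 bases long with 55% G and C, and is printed 5′ to 3′ as the scanner file lists it.
MLST8: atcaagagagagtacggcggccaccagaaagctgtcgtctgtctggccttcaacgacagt
EIF4EBP1: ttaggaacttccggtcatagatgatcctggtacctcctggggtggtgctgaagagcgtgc
The MLST8 sequence was carried by 1 probe and had no stop codon in any of its 3 reading frames. The EIF4EBP1 sequence was carried by 2 probes, which are therefore repeat readings of 1 sequence. It had a stop codon in every frame as listed and 1 open frame on its reverse complement. The listed strand may therefore run opposite to the coding strand, and whether it reads the EIF4EBP1 transcript was not settled here. EIF4EBP1 values below are values of this sequence and may not be levels of the transcript. Of all probes, 80.3% had an open frame as listed and 14.3% had one on the reverse complement only. In the Sscrofa11.1 gene table MLST8 and TSC2 lie on the same chromosome with 5 protein-coding genes between them.

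The share of probes well above background ran from 58.4% to 75.9% of an array. Of 12 skeletal muscle marker genes 11 had a kept probe, each well above background on all 35 arrays. Markers of other cell types moved with temperature. Of the leukocyte list 15 of 18 genes were measured, 14 were higher in HS and 7 passed the test as higher, with a median difference of 0.74 on the log2 scale. The 7 were LYZ, CSF1R, AIF1, LAPTM5, TYROBP, FCER1G and CD74. PTPRC was at -0.02 (limma adjusted p = 0.906). The rest, the T cell markers CD3E, CD3D, CD2 and CD8A and also CD14, CD68 and ITGB2, were higher without passing. The array mean of this list ranged from 7.68 to 10.21 in TN and from 8.98 to 10.49 in HS. All 14 connective tissue markers were higher in HS and 7 passed, with a median of 0.33. Other lists leaned lower. Of 7 endothelium markers 6 were lower and 1 passed as lower (median -0.20), both measured blood markers were lower and 1 passed (median -0.72), and of the 11 skeletal muscle markers 9 were lower, with 3 passing as lower and 1 as higher (median -0.02). No adipocyte or nerve marker passed by limma's adjusted p. Arrays are bulk measurements, so fewer cells of a type and less RNA per cell cannot be told apart. The log2 of the unnormalised 75th percentile of brightness was 9.05 ± 0.17 (SD, n = 18) over TN arrays, and over HS arrays it was 9.24 ± 0.24 (SD, n = 17). For the bright spike-in controls, whose RNA is added during labelling, the log2 mean was 14.46 ± 0.13 (SD, n = 18) over TN arrays, and over HS arrays it was 14.49 ± 0.11 (SD, n = 17).

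The first question was which of these genes differed with temperature in all breeds together, and it was put to all 35 arrays with breed in the model. All differences are HS minus TN on the log2 scale of the quantile-normalised intensity, and a gene with several probes is given by the one with the highest mean. The MLST8 probe and the EIF4EBP1 probe fell with HS, by 19% and by 14.9%. For EIF4EBP1 the strand limit given with its sequence holds, and it holds for the main RPS6KB1 probe as well. Of the other 6 tested genes, MTOR, RHEB, AKT1, DDIT4 and RPS6KB1 had lower means in HS and RPTOR a higher one, and none passed the test (limma, Benjamini-Hochberg adjusted over all 41517 probes, threshold 0.05). The median over the 8 genes was -0.14 and over all kept probes -0.02. Over all probes 16.0% passed, 7.73% as higher and 8.30% as lower, against 2 of the 8 genes, both lower. With 1 probe per gene, 18.1% of all genes with a symbol passed, 9.66% as lower. The paper had already reported MLST8 as lower in the heat in the muscle of these animals. Its place in this set was therefore not blind to that result. The balance of directions over all probes depended on the scaling. Lower calls made up 51.8% of calls here, 72.8% with 75th percentile scaling, 62.5% with the processed signal and 13.4% with spike-in scaling.

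**Figure D1:**
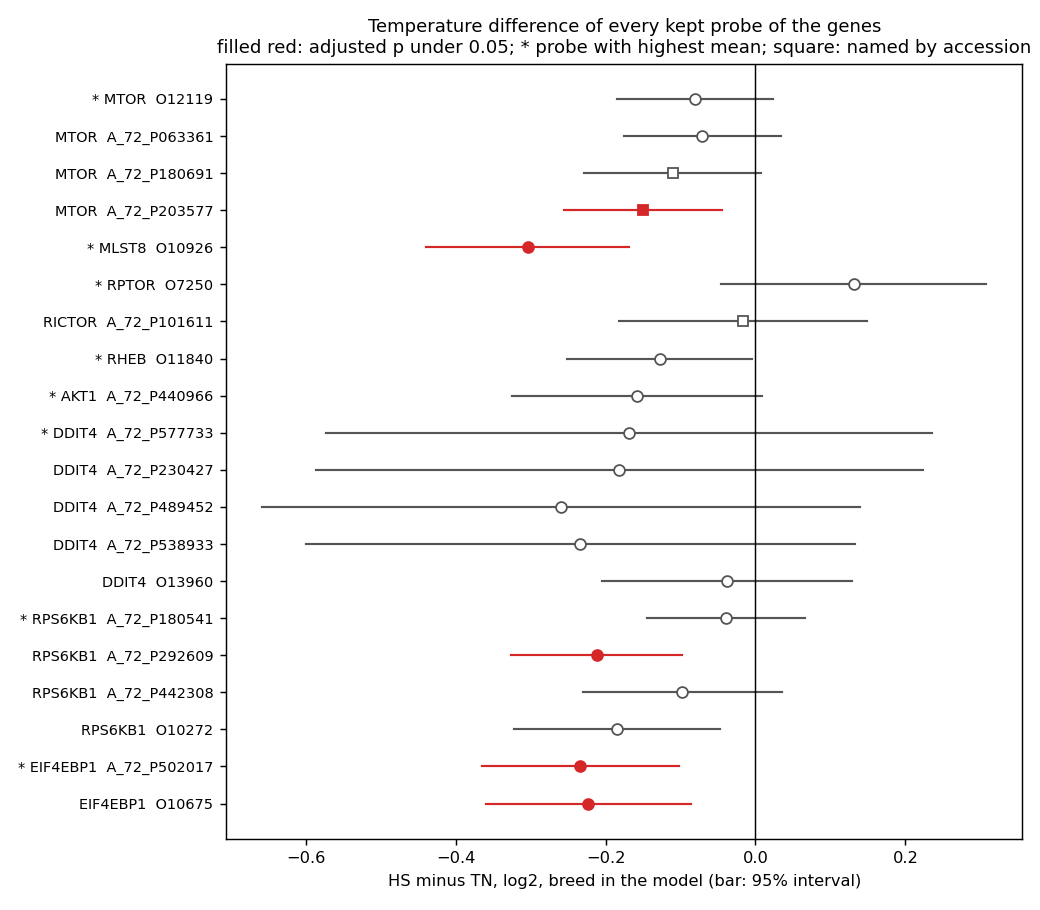
HS minus TN on the log2 scale (x axis) for every kept probe of the 10 genes, with breed in the model; bars are 95% intervals, circles are probes found by gene name, squares probes named by accession, and filled red marks an adjusted p under 0.05. MLST8 is lowest at -0.30, both EIF4EBP1 probes sit near -0.23, 1 of 4 RPS6KB1 probes passes, the accession-named MTOR probe at -0.15 also passes, and RPTOR alone lies above 0.

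MLST8, the subunit common to both mTOR complexes, had the clearest difference. In Creole pigs its log2 intensity was 8.46, 8.59 and 8.83 (lowest, median, highest of 6) in TN and 8.01, 8.45 and 8.72 in HS. In Large White pigs it was 8.44, 8.78 and 9.19 in TN and 8.29, 8.45 and 8.71 in HS. In F1 pigs it was 8.35, 8.66 and 8.81 in TN, and the 5 HS arrays gave 8.31, 8.27, 8.33, 8.18 and 8.14. The F1 groups did not overlap, while in the other breeds 3 of 6 HS arrays each lay inside the TN range. How many of all probes separated the F1 groups in this way was not counted, and MLST8 did not pass the test inside F1. On 16 of 17 HS arrays MLST8 was below the TN mean of its own breed. The difference over all breeds was -0.30 (SE 0.07, limma adjusted p = 0.00255, 95% interval -0.44 to -0.17).

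MLST8 kept its direction and passed the test with slide as a block (-0.31), with array brightness as a covariate (-0.30, adjusted p = 0.0151) and adjusted for the mean of the leukocyte markers (-0.35, adjusted p = 0.00897). Inside the 4 slides of 8 arrays, which each held both temperatures, it was -0.20, -0.41, -0.46 and -0.21 with breed in the model. The fifth slide held 1 Creole HS array and 2 Large White TN arrays, so that breed and temperature cannot be told apart on it. Leaving out any 1 array gave values from -0.33 to -0.28 with adjusted p from 0.00126 to 0.00495. Scaled to the spike-in controls instead, the difference was -0.15 and did not pass (limma adjusted p = 0.307), and the median of all probes was then 0.07.

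MTOR, the kinase itself, did not pass on either probe found by name. Its probe ranged from 10.77 to 11.44 over the 18 TN arrays, with a median of 11.23, and from 10.95 to 11.29 over the 17 HS arrays, with a median of 11.11. Of the HS values 16 of 17 lay inside the TN range of their breed. The difference was -0.08 (SE 0.05, limma adjusted p = 0.294), and it was 0.07 with spike-in scaling. The second MTOR probe found by name gave -0.07 (adjusted p = 0.367). It had a stop codon in every frame as listed and 1 open frame on its reverse complement, so its strand was not settled. Of 2 further probes that the reference table names MTOR through their accession, 1 passed the test at -0.15 (adjusted p = 0.0451) and the other did not at -0.11 (adjusted p = 0.196). The probe that passed correlated with the main MTOR probe over arrays (r = 0.786, n = 35), the other less so (r = 0.275).

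RPTOR, the substrate-binding subunit of mTORC1, was the least often detected of the tested genes, well above background on 26 of 35 arrays. Its log2 intensity had a median of 5.69 in TN and of 5.69 in HS. One F1 HS array stood at 6.86 while the other four were at 5.61, 5.53, 5.69 and 5.56. The difference of 0.13 (SE 0.09, limma adjusted p = 0.319) became 0.06 (adjusted p = 0.565) without that array. In Large White pigs all 6 HS arrays were above the TN mean, in F1 pigs 1 of 5. A second probe named RPTOR through its accession was well above background on 7 arrays and was not kept.

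**Figure D2:**
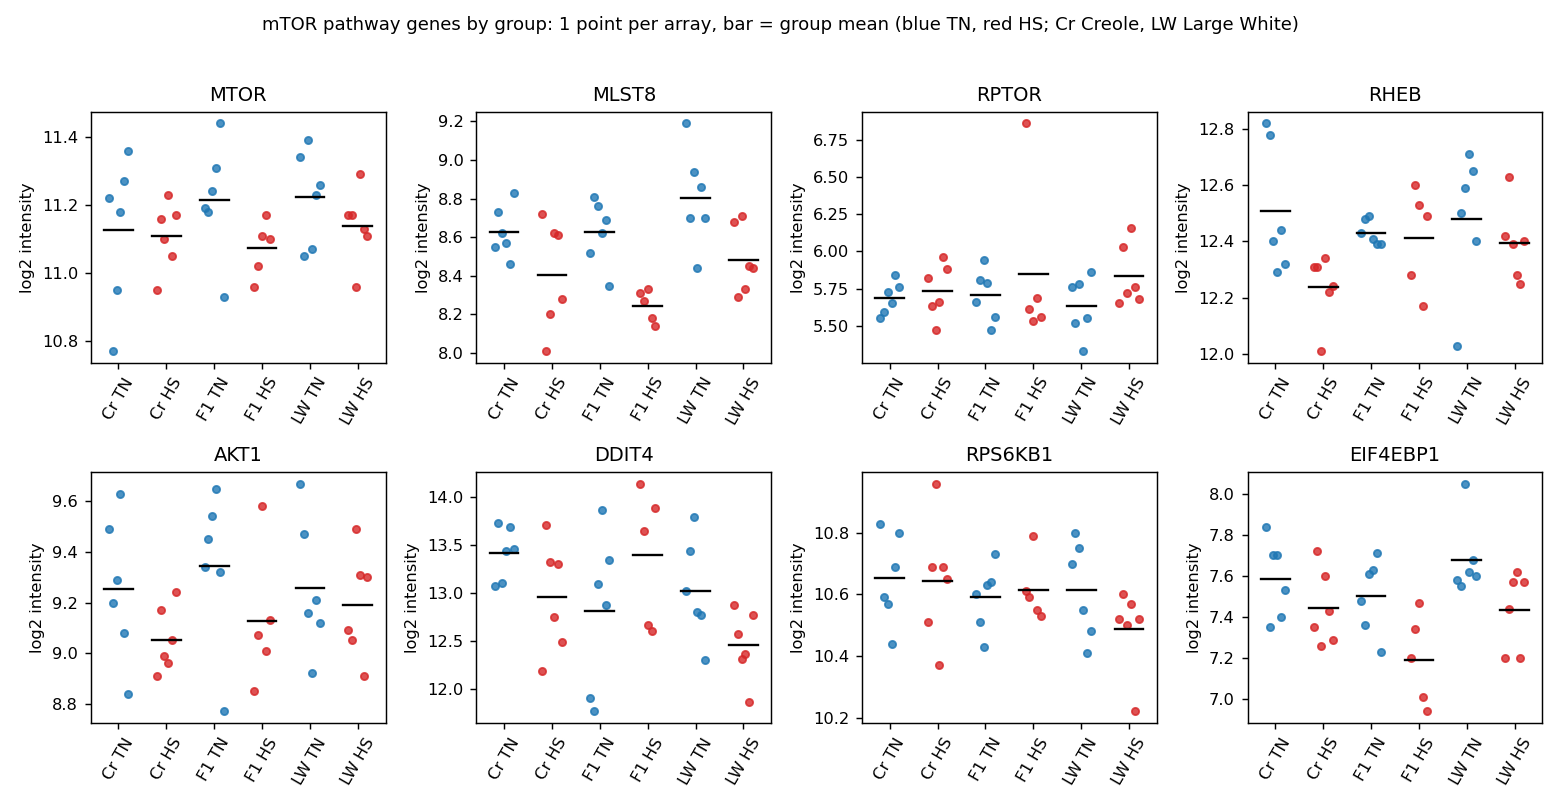
Log2 intensity (y axis) of 8 mTOR pathway genes in the 6 groups (x axis), 1 point per array with a bar at the group mean, blue for TN and red for HS; each panel has its own scale. For MLST8 the 5 F1 HS arrays sit between 8.14 and 8.33, below all F1 TN arrays. How many of all probes separate the F1 groups was not counted, and MLST8 did not pass the test inside F1. For RPTOR 1 F1 HS array stands apart at 6.86, and DDIT4 spreads over 2 log2 units among F1 pigs.

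RICTOR, the defining subunit of mTORC2, was read by the accession-named probe only. It ranged from 6.66 to 7.89 in TN and from 6.75 to 7.47 in HS, and the difference was -0.02 (SE 0.08, limma adjusted p = 0.916, 95% interval -0.18 to 0.15). TSC2 stayed between 4.92 and 5.64 over all arrays and was not well above background on 34 of them, so no level is read from it. Fitted without the filter its difference was -0.09 (limma adjusted p = 0.341).

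RHEB, the GTPase that activates mTORC1, was well above background on every array. In Creole pigs it was 12.29, 12.42 and 12.82 (lowest, median, highest) in TN and 12.01, 12.28 and 12.34 in HS. All 6 Creole HS arrays were below the Creole TN mean, against 2 of 5 in F1 and 5 of 6 in Large White. The difference over all breeds was -0.13 (SE 0.06, limma adjusted p = 0.148), which did not pass, though it passed when Large White TN replicate 1 was left out (adjusted p = 0.0463). AKT1, the kinase between insulin signalling and TSC2, had medians of 9.30 in TN and 9.07 in HS. The 6 Creole HS arrays lay between 8.91 and 9.24, inside the Creole TN range of 8.84 to 9.63. Its difference was -0.16 (SE 0.08, limma adjusted p = 0.186, 95% interval -0.33 to 0.01), and it was -0.01 with spike-in scaling.

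DDIT4, the stress-induced restraint on mTORC1, varied most between animals. Over the 35 arrays it ranged from 11.77 to 14.14. In F1 pigs the 6 TN arrays ran from 11.77 to 13.87 with a median of 12.99, and the 5 HS arrays read 14.14, 13.65, 12.67, 12.61 and 13.89. The Creole medians were 13.45 in TN and 13.02 in HS, and the Large White medians 12.91 and 12.47. Higher HS values in F1 thus stood beside lower ones in the parental breeds, with all 3 pairs of groups overlapping. The SD within a group ran from 0.28 to 0.83. The difference over all breeds was -0.17 (SE 0.20, limma adjusted p = 0.606, 95% interval -0.57 to 0.24). It was 0.05 with the brightness covariate and 0.26 with the leukocyte covariate, neither past the test.

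The 5 DDIT4 probes gave differences from -0.26 to -0.04, with adjusted p from 0.391 to 0.802. A pair of them has 1 identical sequence (r = 0.988, n = 35). The 4 brighter probes correlated with each other at 0.937 or more, so they ranked the animals alike, and the dimmest followed them at 0.772 to 0.810. The spread of DDIT4 between pigs was therefore seen by several probes. The dimmest had no open frame as listed and 2 on its reverse complement, so its strand was not settled.

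EIF4EBP1 codes for a protein that holds back cap-dependent translation until mTORC1 phosphorylates it, and its probe read lower in HS. In Large White pigs it was 7.55, 7.61 and 8.05 (lowest, median, highest) in TN and 7.20, 7.5 and 7.62 in HS. In F1 pigs it was 7.23, 7.54 and 7.71 in TN, and the HS arrays gave 7.20, 7.34, 7.47, 7.01 and 6.94. In Creole pigs it was 7.35, 7.62 and 7.84 in TN and 7.26, 7.39 and 7.72 in HS. The groups overlapped in every breed, while 15 of 17 HS arrays were below the TN mean of their breed, including every F1 and Large White HS array. The difference was -0.23 (SE 0.06, limma adjusted p = 0.0133, 95% interval -0.37 to -0.10), and the second probe of the same sequence gave -0.22 (adjusted p = 0.0217). The limit on strand given with the sequence holds for both.

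EIF4EBP1 no longer passed with array brightness as a covariate (-0.16, limma adjusted p = 0.149), adjusted for the mean of the leukocyte markers (-0.14, adjusted p = 0.245) or with spike-in scaling (-0.11, adjusted p = 0.377). Inside the 4 slides of 8 arrays it was -0.27, 0.02, -0.50 and -0.22. Leaving out the array at 8.05 (Large White TN replicate 3), it still passed (-0.21, adjusted p = 0.0245).

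**Figure D3:**
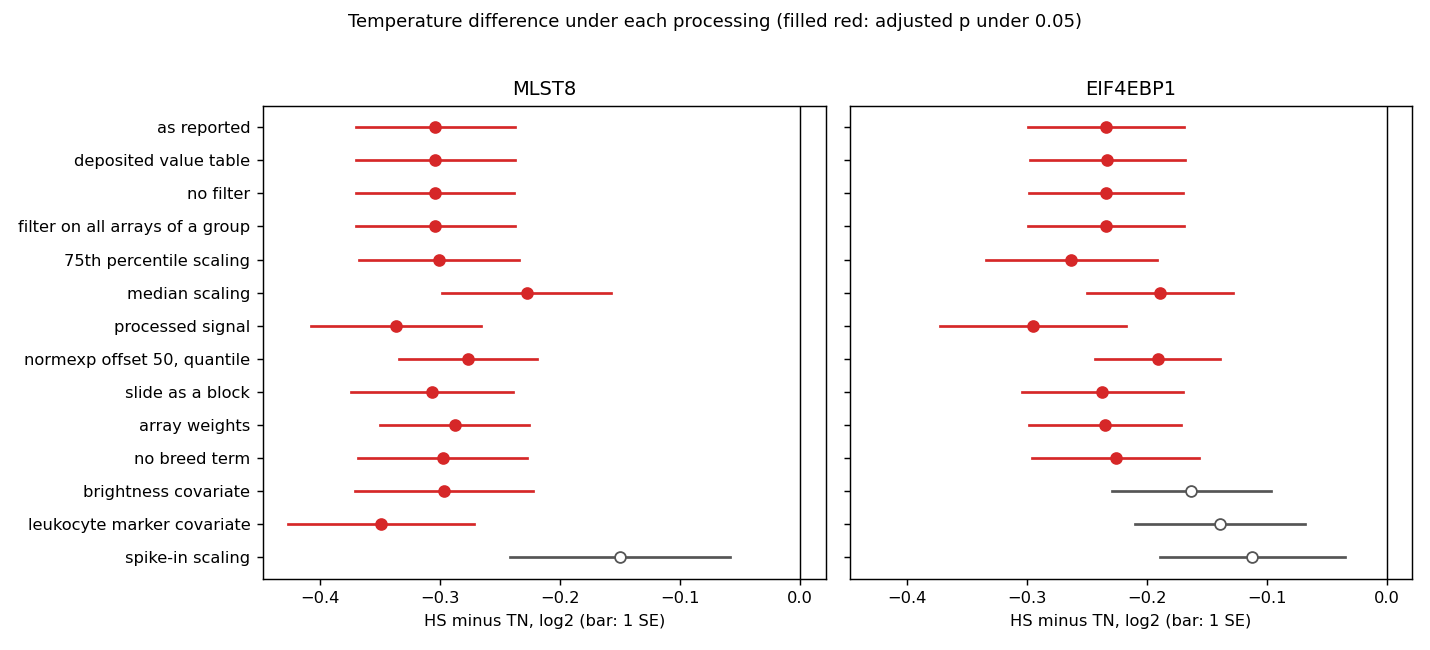
HS minus TN on the log2 scale (x axis) for MLST8 and EIF4EBP1 under each way of processing (y axis), with bars of 1 SE; filled red marks an adjusted p under 0.05. MLST8 stays between -0.35 and -0.23 except with spike-in scaling at -0.15, and EIF4EBP1 loses its call with the brightness covariate, the leukocyte covariate and spike-in scaling.

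RPS6KB1, the S6 kinase gene, was read by 4 probes that did not give 1 answer. The brightest ranged from 10.41 to 10.83 in TN and from 10.22 to 10.96 in HS, with medians of 10.61 and 10.57. Its difference was -0.04 (SE 0.05, limma adjusted p = 0.652), and it was 0.04 with median scaling and 0.12 with spike-in scaling. A dimmer probe, with a mean near 7.70, fell by 0.21 (SE 0.06, limma adjusted p = 0.00977), and 16 of 17 HS arrays were below the TN mean of their breed. The remaining probes gave -0.18 (adjusted p = 0.0568) and -0.10 (adjusted p = 0.324). Over the 35 arrays the 2 probes with the larger differences followed each other (r = 0.741), as did the other two (r = 0.688), while probes across these pairs correlated at 0.203 to 0.517. The brightest probe and the dimmer one that passed had a stop codon in every frame as listed. On the reverse complement they had 2 and 1 open frames, so the strand limit given for EIF4EBP1 holds for both. Which part of the transcript each of the 4 reads was not settled here. Counted by the probe with the smallest p instead of the brightest, 3 of the 8 genes passed. Picking the smallest p among several probes makes a call likelier for any gene, and the share over all genes was not counted this way.

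The same genes were then compared inside each breed, in a model with 1 mean per group. No member passed in any breed. Over all probes 1.91% passed in Creole, 0.00482% in F1 and 0.00482% in Large White, which is 2 probes each in F1 and Large White. MLST8 was lower in HS in all 3 breeds, by -0.22 in Creole (95% interval -0.45 to 0.02), -0.38 in F1 (-0.63 to -0.13) and -0.32 in Large White (-0.56 to -0.09), with limma adjusted p of 0.268, 0.279 and 0.163. EIF4EBP1 gave -0.15, -0.31 and -0.25 in the same order (limma adjusted p = 0.462, 0.4 and 0.261). RHEB gave -0.27 in Creole, -0.02 in F1 and -0.09 in Large White (limma adjusted p = 0.127, 0.99 and 0.7). An unadjusted limma p under 0.05 was found for 1 of the 8 genes in Creole, 2 in F1 and 2 in Large White. Of all 41517 probes, 8946, 3444 and 6893 were under it in the same order.

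Whether the response differed between breeds was tested with the moderated F-test of the breed by temperature interaction in limma, which called 0 of 41517 probes (0%), with 1593 at an unadjusted p under 0.05. MLST8 had an unadjusted p of 0.615 (adjusted 0.966) and EIF4EBP1 of 0.591 (adjusted 0.966). DDIT4 had the smallest p of the 8 genes. Its difference was -0.46 in Creole (95% interval -1.10 to 0.18), 0.58 in F1 (-0.10 to 1.25) and -0.56 in Large White (-1.20 to 0.09), a span of more than 1 log2 unit. The F-test gave an unadjusted p of 0.035 and an adjusted p of 0.963, so the interaction did not pass. This test asks whether the breeds differ in any way, and the response of F1 against that of the parental breeds was not fitted on its own. Among the other DDIT4 probes the unadjusted p ran from 0.0159 to 0.0832, and leaving out single arrays moved that of the main probe between 0.00821 and 0.103.

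**Figure D4:**
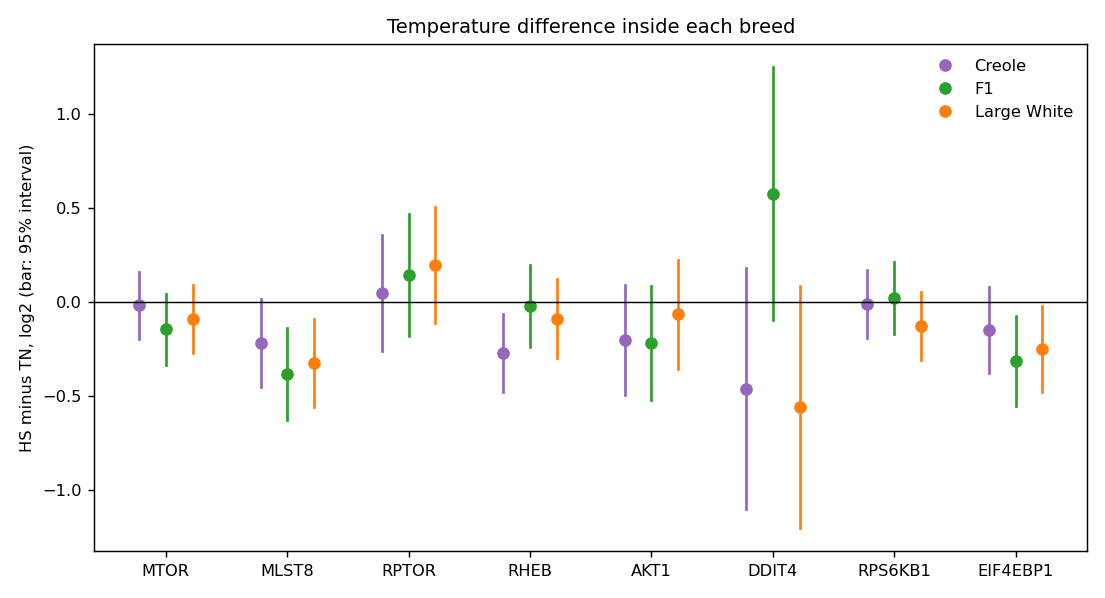
HS minus TN on the log2 scale (y axis) inside Creole, F1 and Large White for the 8 tested genes (x axis), with 95% intervals. MLST8 and EIF4EBP1 lie below 0 in all 3 breeds, and DDIT4 lies at 0.58 in F1 against -0.46 in Creole and -0.56 in Large White, with wide intervals.

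No member passed between Creole and Large White, where 3.64% of all probes did, between F1 and Large White (0.525%), between F1 and Creole (0.477%) or between F1 and the mean of the parental breeds (0.246%). DDIT4 had the widest difference between the parental breeds, 0.45 higher in Creole (SE 0.24, limma adjusted p = 0.385). MLST8 had a lower mean in Creole than in Large White (difference -0.13, SE 0.08, limma adjusted p = 0.484). F1 pigs had lower means than Large White for MLST8 (-0.21, SE 0.08, limma adjusted p = 0.332) and EIF4EBP1 (-0.20, SE 0.08, limma adjusted p = 0.319). Against the parental midpoint MLST8 was at -0.14 (SE 0.07, limma adjusted p = 0.694) and EIF4EBP1 at -0.18 (SE 0.07, limma adjusted p = 0.476). These contrasts share animals, and at an unadjusted limma p under 0.05 they held 0, 2, 1 and 1 of the 8 genes in the order given. Of all 41517 probes they held 6384, 4371, 3685 and 3053 at that threshold.

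The wider pathway was described with 11 lists of 83 genes, of which 61 had a kept probe. With temperature 12 of the 61 passed, 10 as lower and 2 as higher, which is 19.7%. Over 9894 genes with a symbol, again with 1 probe per gene, 18.1% passed, 9.66% as lower and 8.42% as higher. The median difference was -0.08 over the lists and -0.02 over all these genes. Of the lists' genes 14 of 61 were higher in HS, passed or not, and over all these genes 56.4% were lower. Without any 1 array the number that passed ran from 7 to 15, and it was 7 without Creole HS replicate 1 and without F1 HS replicate 4. Adjusted for the mean of the leukocyte markers, 6 passed. Among them, named after their values were seen, were MLST8, LAMTOR2, SLC3A2 and SLC38A2 as lower and EIF4B as higher.

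Among complex subunits, 2 of 6 measured mTORC1 genes fell, where 18.1% of all genes with a symbol passed, 9.66% as lower. The lists are small, and no set test was run on them. The 2 were MLST8 and DEPTOR, an inhibitor that binds the kinase (-0.41, SE 0.13, limma adjusted p = 0.0309). DEPTOR was at -0.10 (adjusted p = 0.652) with the leukocyte covariate, and it failed to pass in 4 of the 35 fits without 1 array. In all it did not pass in 3 of the 13 other ways of processing. Of 3 measured mTORC2 genes PRR5, a partner of RICTOR, rose (0.31, SE 0.11, limma adjusted p = 0.046), on a dim probe with a mean of 6.19. PRR5 was at -0.01 with the leukocyte covariate and did not pass in 23 of the 35 fits without 1 array. Beside the leukocyte covariate, 5 more of the 13 other ways of processing also left it short of the test. None of the 3 measured genes of the TSC and RHEB list passed, and RHEB had the smallest p there.

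Upstream, 2 of 9 measured genes of the route from insulin to AKT fell, beside 9.66% of all genes with a symbol. PDPK1, the kinase that phosphorylates AKT, was 1 of them (-0.13, SE 0.04, limma adjusted p = 0.0395), and it did not pass in 15 of the 35 fits without 1 array. PDPK1 also did not pass in 7 of the 13 other ways of processing. INSR, IRS1, PIK3CA, PIK3R1 and AKT2 were between -0.13 and -0.03 and did not pass. Of 4 stress-induced inhibitors none passed, and SESN1, a sestrin, had the smallest p (-0.19, limma adjusted p = 0.0696). Of 7 AMPK genes 1 passed, the gamma subunit gene PRKAG1 (-0.12, SE 0.04, limma adjusted p = 0.031), whose second kept probe also fell. PRKAG1 was at -0.09 (adjusted p = 0.257) and PDPK1 at -0.10 (adjusted p = 0.237) with the leukocyte covariate, and PRKAG1 did not pass in 4 of the 35 fits without 1 array. With spike-in scaling PRKAG1 was at -0.01 and PDPK1 at -0.03. Of the 13 other ways of processing, PRKAG1 did not pass in 4.

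On the amino acid side, RRAGA, a Rag GTPase that brings mTORC1 to the lysosome, fell on both of its probes (-0.17, SE 0.05, limma adjusted p = 0.0217, and -0.16). RRAGA was at -0.14 (adjusted p = 0.176) with the leukocyte covariate and at -0.01 (adjusted p = 0.94) with spike-in scaling. In all it did not pass in 4 of the 13 other ways of processing. It was also the only gene of these lists to pass inside a breed, in Creole pigs (-0.32, SE 0.08, limma adjusted p = 0.0369). This call inside Creole was lost when Creole TN replicate 1 was left out. Of 8 genes of GATOR and folliculin none passed, and SEH1L had the smallest p (-0.12, limma adjusted p = 0.0887). The other kept SEH1L probe had the opposite sign (0.10) and did not pass. SLC3A2, the heavy chain of the leucine transporter, had the largest difference of the 61 genes (-0.72, SE 0.14, limma adjusted p = 0.000941), and fell by 39.5%. Its other 2 probes fell too, by 0.64 and 0.49, and it passed under all 13 other ways of processing, where it ran from -0.78 to -0.57. The other measured carrier, SLC38A2, was at -0.12 (limma adjusted p = 0.527) with its 7 other kept probes between -0.16 and -0.10.

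Downstream, 3 of 11 measured translation genes passed, beside 18.1% of all genes with a symbol. EIF4EBP1, on the probe of unsettled strand, and EIF4G1, the scaffold of the cap-binding complex (-0.26, SE 0.07, limma adjusted p = 0.013), fell. PDCD4, a translation inhibitor degraded after S6 kinase phosphorylation, rose (0.30, SE 0.10, limma adjusted p = 0.0441). One EIF4G1 probe was at -0.01, and the main one did not pass with the leukocyte covariate (-0.26, adjusted p = 0.0609) or with spike-in scaling (-0.11, adjusted p = 0.338). In all the main EIF4G1 probe did not pass in 4 of the 13 other ways of processing. Of PDCD4, 2 of the 4 other probes rose and all 4 were positive, from 0.23 to 0.41. PDCD4 was at 0.07 with the leukocyte covariate. It did not pass in 19 of the 35 fits without 1 array or in 4 of the 13 other ways of processing. RPS6, EIF4E and EEF2 were within 0.05 of 0. ULK1, the kinase that starts autophagy and is inhibited by mTORC1, fell by 0.54 (SE 0.14, limma adjusted p = 0.00801), as did its other 2 kept probes. ULK1 was at -0.22 (adjusted p = 0.316) with the leukocyte covariate, and in all it did not pass in 2 of the 13 other ways of processing.

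**Figure D5:**
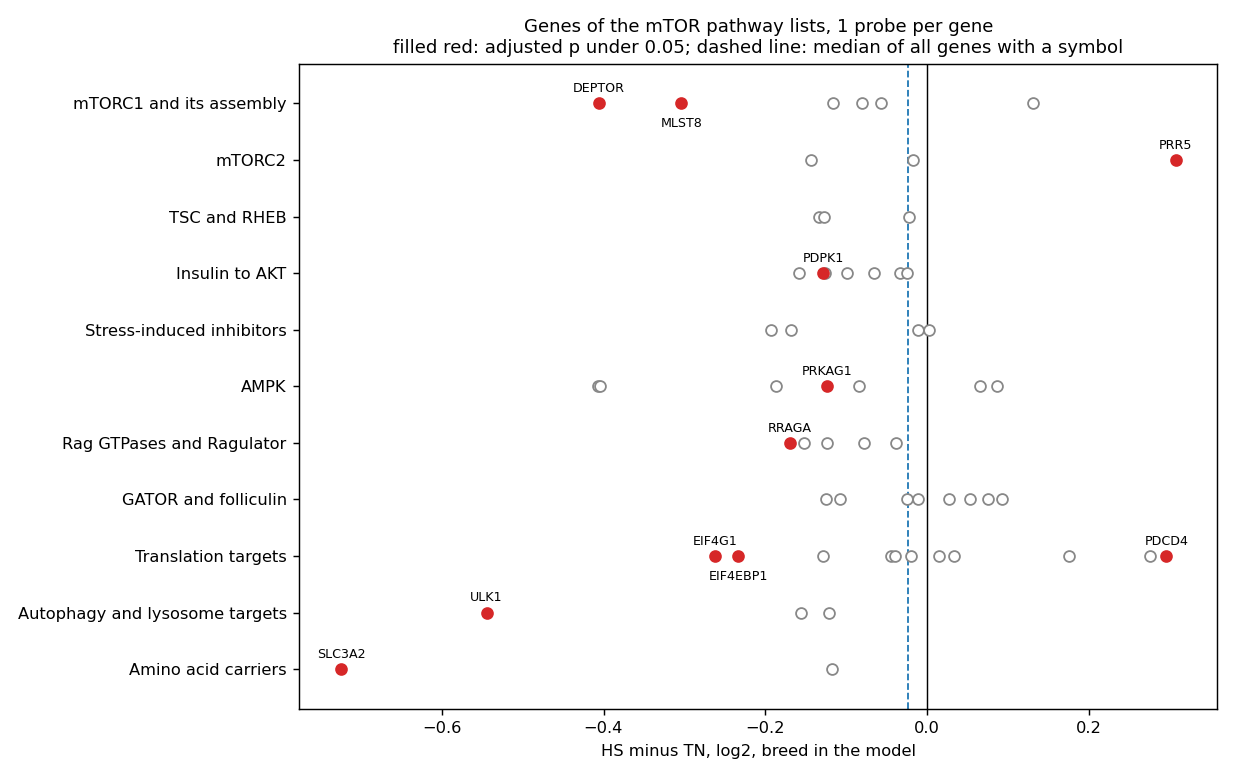
HS minus TN on the log2 scale (x axis) for genes of 11 mTOR pathway lists (y axis), 1 point per gene shown; filled red and named marks an adjusted p under 0.05, and the dashed line is the median of all genes with a symbol (-0.02). Of the 11 named genes 9 lie below 0, SLC3A2 and ULK1 farthest, and PRR5 and PDCD4 lie near 0.30.

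Among the genes whose pattern over the 35 arrays was most like that of MLST8, after subtracting breed means, were the tRNA methyltransferase TRMT1 (r = 0.741), the zinc transporter SLC39A3 (r = 0.718), PCID2 (r = 0.705) and RDH13, a retinol dehydrogenase (r = 0.704). They come from 9883 genes compared, over which the median r was 0.0485 and 160 genes were above 0.5. These 4 also fell with HS, from -0.15 for TRMT1 to -0.32 for SLC39A3, and since temperature was not subtracted this shared difference is part of the likeness. Among the pathway members r with MLST8 was 0.413 for EIF4EBP1, 0.362 for AKT1 and 0.271 for MTOR, and between -0.06 and 0.08 for RPTOR, RPS6KB1, RHEB and DDIT4. These values are descriptions over arrays that share scaling and groups.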

How the data were processed

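RNA of the longissimus dorsi muscle of 35 pigs was labelled with Cy3 and hybridised by the authors to 1-colour Agilent arrays, read with Agilent Feature Extraction 10.10.1.1 per the labels. Per spot, the deposited scanner files give linear-scale intensity and flags for outlier spots, saturation and background, which were used here. The deposited value table holds log2 values of 40649 probes, which the authors quantile-normalised and filtered, and it was used as an alternative. The precision of group means and differences is limited by the number of arrays.

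The median pixel intensity was quantile-normalised without background subtraction and log2 was taken. Control spots were left out, 105 outlier spots were set to missing, and no spot was saturated. Probes were named through accessions or gene identifiers in the Sscrofa11.1 gene table (10912 probes), otherwise through the files' gene name (14391). No genome position is given, since probes were not mapped. Fits used limma 3.58.1 in R 4.3.3 with an additive model of breed and temperature, or with 1 mean per group for differences inside breeds and the interaction. The random terms of the study's model (pen, slaughter day, parents) could not be fitted, since the labels do not give them. Other scalings, background correction, filters, slide as a block, array weights, covariates, other probes and leaving out each array were tried, with the quantile normalisation kept over all arrays in the latter. The fits were tested on simulated data.

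Named genes are the 10 members, the pathway genes past the threshold with temperature or with the smallest p of a list, and the 5 genes most like MLST8; other genes were named after their values were seen, and some genes that the rule names are not reported here. The members, the lists and this rule were chosen with earlier results of these data known. Of the pathway lists 22 genes were not measured by a kept probe, among them AKT1S1, LAMTOR1, RPS6KB2 and SLC7A5.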

Additional observations from a re-analysis of the deposited data

Results flagged for a closer look

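In 5 of the 48 sets of arrays looked at (8 genes in 6 groups), 1 array stood farther from the rest than Dixon's 95% limit allows, which chance alone gives in about 1 of 20 sets. RPTOR stood at 6.86 on F1 HS replicate 1, next to 5.69 for the nearest array of the group, and the temperature difference without it was 0.06. RPS6KB1 stood at 10.22 on Large White HS replicate 5 (nearest 10.5), and the difference without it was -0.02. EIF4EBP1 stood at 8.05 on Large White TN replicate 3 (nearest 7.68), and without it the difference was -0.21 (limma adjusted p = 0.0245). AKT1 stood at 8.77 on F1 TN replicate 6 (nearest 9.32), and without it the difference was -0.19 (limma adjusted p = 0.0836). RHEB stood at 12.01 on Creole HS replicate 3 (nearest 12.22), and without it the difference was -0.11 (limma adjusted p = 0.224). None of these arrays changed a call on its gene.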

How the results depend on the processing

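No paired analysis was possible because replicate numbers follow the order of deposition and pair nothing. With temperature, spike-in scaling left 0 of the 8 tested genes called (MLST8 -0.15, EIF4EBP1 -0.11), and the brightness covariate (EIF4EBP1 -0.16) and the leukocyte covariate (EIF4EBP1 -0.14) left 1, MLST8. The 12 pathway genes called became 3 with the brightness covariate, 6 with the leukocyte covariate, 6 with median scaling and 3 with spike-in scaling, and 7 to 15 without 1 array. The 6654 probes called became 2092 with the brightness covariate and 2380 with the leukocyte covariate. Differences that had not passed changed sign for DDIT4 (0.048 with the brightness and 0.262 with the leukocyte covariate), MTOR (0.065, spike-in), SEH1L (0.019, spike-in) and RPS6KB1 (0.003 with brightness, 0.03 with leukocyte, 0.038 with median and 0.116 with spike-in scaling), and PRR5, which had passed, was at -0.009 with the leukocyte covariate. The cause was not tested. Without 1 array DDIT4 ran from -0.242 to 0.02 for F1 minus Creole and from -0.019 to 0.243 against the midpoint, and RHEB inside F1 from -0.063 to 0.044. Counts over all probes moved most inside the breeds. Over the alternatives and the fits without 1 array they ran from 0 to 1669 in Creole, from 0 to 714 in F1 and from 0 to 1071 in Large White, from 120 to 759 for F1 minus Large White, from 129 to 456 for F1 minus Creole and from 28 to 289 against the midpoint. No member passed in any of these, nor in the interaction, under any alternative run.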
